A study of Mus musculus with 16 samples.

Results

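The reads of 9 genes of central myelin, Mbp, Mag, Mog, Mobp, Cnp, Cldn11, Opalin, Ermn and Mal, were followed through cortex and striatum of an HD mouse model. The genes were chosen by name, as genes that myelinating oligodendrocytes use to build and hold the sheath, and every isoform row annotated to one of them was taken. They make up 9 of the 21627 annotated genes with at least 1 read and 1031 of the 815498 isoform rows. All 9 passed the filter on low counts in every gene-level comparison.

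Full-length poly(A) RNA was read by PacBio Iso-seq, a long-read method in which 1 read covers 1 transcript, from male mice 3 months old. R6/2 mice (B6CBA-Tg(HDexon1)62Gpb/3J) carry a transgene of exon 1 of mutant human HTT under the human HTT promoter and so model a fragment of the protein, and NT mice are their non-transgenic controls. Cortex NT, cortex R6/2, striatum NT and striatum R6/2 held 4 samples each, 16 in all. The samples are numbered within a group, and nothing in the labels ties a number to a mouse, so p values here measure the spread between these samples.

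Total reads lay between 252885 and 808814 in cortical and between 317050 and 1496196 in striatal samples. In the striatum, 2 NT and 2 R6/2 samples had 2 count sets, which were summed, and the other 4 had 1. The striatal samples with 1 set stood apart: their mean isoform length was 1618 to 1885 nt against 2141 to 2225 nt, and mitochondrial reads took 1.41 to 3.27% against 0.408 to 0.851%. The main striatal results between the genotypes are given also within each number of sets. Striatal projection neuron markers separated the regions, with 8141 to 12943 RPM (reads relative to the sample's gene reads, unscaled) summed over 8 genes in striatum NT and 379 to 463 in cortex NT.

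Oligodendrocytes wrap axons in layers of their own membrane, and Mbp binds the inner faces of that membrane together into compact myelin. Mobp is a second basic protein of compact myelin, Mal is a proteolipid of membrane rafts that carry myelin proteins, and Cldn11 forms the tight junctions between the layers. Mag and Mog are immunoglobulin-family proteins, Mag facing the axon and Mog on the outer surface. Cnp, a cyclic nucleotide phosphodiesterase, keeps channels of cytoplasm open, Ermn binds the cytoskeleton and Opalin is a membrane glycoprotein of oligodendrocytes. Alternative splicing of Mbp gives several classic proteins, and an upstream start gives golli proteins, which neurons and immune cells use too. Mag is spliced to a large and a small form with different cytoplasmic tails.

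The cassette exon that separates the Mag tails is exon 12 of the 13 exons of ENSMUST00000187137, at GRCm38 chr7:30900352-30900396 on the minus strand. It is shown because it tells the known Mag forms apart. Capitals mark its 45 bases and lower case the 30 intronic bases before it. A TGA stop codon starts at exon base 31 (chr7:30900364-30900366), so a transcript that holds the exon ends its reading frame there.
Mag exon 12: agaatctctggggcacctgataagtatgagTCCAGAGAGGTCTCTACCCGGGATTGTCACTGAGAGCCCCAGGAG

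The promoters of Mobp, Mal and Cldn11, the members with the lowest R6/2 to NT ratios in both regions, are shown to compare the letters upstream of them. The 250 bases before each RefSeq start are printed 5′ to 3′ on the gene's strand, at chr9:120149492-120149741 (plus) for Mobp, chr2:127656696-127656945 (minus) for Mal and chr3:31149670-31149919 (plus) for Cldn11, all in GRCm38.p6. Capitals mark ACAAAG, a core that SOX-family factors such as Sox10 can bind, or its reverse complement CTTTGT.
Mobp: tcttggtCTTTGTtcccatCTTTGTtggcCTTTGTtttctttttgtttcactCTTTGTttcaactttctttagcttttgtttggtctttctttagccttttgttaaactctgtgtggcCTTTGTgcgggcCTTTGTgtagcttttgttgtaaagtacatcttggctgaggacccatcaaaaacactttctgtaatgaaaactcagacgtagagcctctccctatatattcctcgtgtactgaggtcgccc
Mal: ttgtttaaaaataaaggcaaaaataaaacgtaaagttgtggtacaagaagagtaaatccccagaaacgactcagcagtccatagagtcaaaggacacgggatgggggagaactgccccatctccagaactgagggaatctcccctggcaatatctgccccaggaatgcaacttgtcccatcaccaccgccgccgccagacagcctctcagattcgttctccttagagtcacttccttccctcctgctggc
Cldn11: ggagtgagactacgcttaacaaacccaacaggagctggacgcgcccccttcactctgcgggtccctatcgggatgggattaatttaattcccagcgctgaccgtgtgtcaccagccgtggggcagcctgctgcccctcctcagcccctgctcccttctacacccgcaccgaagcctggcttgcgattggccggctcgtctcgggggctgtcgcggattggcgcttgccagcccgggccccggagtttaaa
Mobp held 6 matches, and it was the only 1 of 32851 such windows (0.00304%) with at least 6, while Mal and Cldn11 held 0. The cut-off of 6 is the count of Mobp itself, so that share is not a chance value. G and C made up 40.8% of the Mobp window, 50% of that of Mal and 63.6% of that of Cldn11, against a median of 52.4% over all windows. The part of base composition in the counts of matches was not tested. On either strand ACAAAG was in 16.5% of all windows and in at least 1 window of 4 of the 8 members with an entry (Cnp, Mag, Mobp and Opalin). Mag has more than 1 window, and not all of them held a match, so the count of genes and the share of windows differ in unit. CACGTG (6.02% of windows), CAGCTG (13.0%) and TATAAA (12.4%), the latter searched as the TATA core, were in a window of 0 of the 8 members. CACGTG and CAGCTG read the same on both strands, and none of the 4 motifs contains another. Mbp had no entry.

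How far do the regions differ in these genes? All 9 were higher in the striatum than in the cortex, in NT and in R6/2 mice alike. Every cortical sample had 1 count set while 4 striatal samples, striatum NT 1 and 2 and striatum R6/2 2 and 3, had 2. The sizes of the regional differences therefore carry the number of sets as well. Mbp, the most read, stood at 3449, 3836, 1479 and 4487 CPM (a count relative to the TMM-scaled library size) in cortex NT and at 16977, 23714, 11255 and 9463 CPM in striatum NT. The lowest striatal sample was above the highest cortical one. Its fold difference was 4.63 (log2 2.21 ± 0.34 SE, adjusted p = 0.000231, edgeR), the highest of the members. In R6/2 mice Mbp took 2082, 2818, 3024 and 3563 CPM in the cortex and 9050, 12403, 13407 and 9584 CPM in the striatum, a 3.87-fold difference (log2 1.95 ± 0.34, edgeR adjusted p = 0.000917).

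Among the other compact myelin genes, Mal was 3.08-fold (NT) and 2.42-fold (R6/2) higher in the striatum, and Mobp 2.71-fold and 2.53-fold. Cldn11 was 2.44-fold and 2.54-fold higher. Of the surface proteins, Mag was 2.14-fold higher in NT and 3.08-fold in R6/2 striatum, and Mog 1.88-fold and 2.44-fold. Cnp (2.62-fold and 3.12-fold), Ermn (2.88-fold and 2.67-fold) and Opalin (2.71-fold and 2.78-fold) completed the set.

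All 9 passed the test in each genotype, with edgeR adjusted p between 0.000231 and 0.0260 in NT and between 0.000382 and 0.00867 in R6/2. Over all genes, 7.28% of 7390 were called higher in striatum NT and 5.76% in striatum R6/2. The median log2 difference was 1.44 (NT) and 1.42 (R6/2) over the members, against 0.02 and -0.00 over all genes tested. The regions did not overlap for 8 of 9 members in NT, where 1 sample of striatum NT lay inside the cortical range of Mog, and for 9 of 9 in R6/2, against 7.27% and 8.73% of all genes. Mog in NT lost its call without the first or second striatal NT sample (edgeR adjusted p = 0.0629 and 0.0701), without the fourth cortical NT sample (0.0663) and without the 4 samples of 2 sets (0.157). A tissue with fewer oligodendrocytes and one with less myelin RNA in each of them cannot be told apart in bulk samples.

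**Figure D1:**
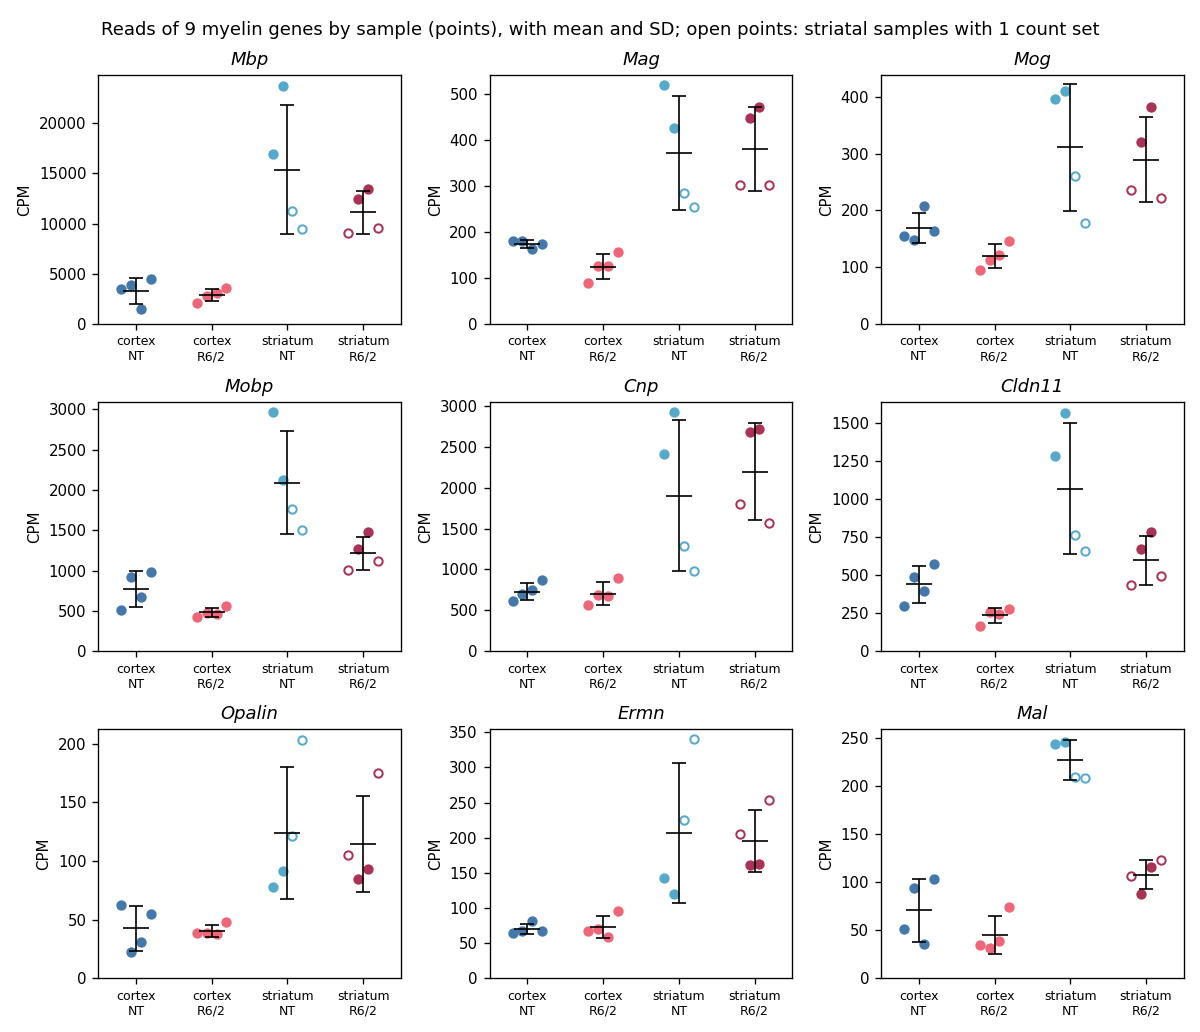
CPM of each of the 9 genes (vertical axis, a separate linear scale from 0 for each gene) in the 4 groups. Points are samples, bars the mean and SD of 4, and open points the striatal samples with 1 count set. Within each genotype striatal points lie above cortical ones except for Mog in NT, and the open points are low for Mbp, Mag, Mog, Mobp, Cnp and Cldn11 and high for Opalin and Ermn.

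Other oligodendrocyte genes were counted by list, where 7.28% of all 7390 genes were called higher in striatum NT and 5.76% in striatum R6/2. Of 15 other myelin proteins tested (16 listed), 8 were higher in striatum NT, among them the connexin Gjb1 (log2 1.78, edgeR adjusted p = 0.000602), Plekhb1 (2.08) and Pllp (1.57), and none was lower. Of 8 lipid enzymes tested 2 were higher, Ugt8a (1.72), which makes galactocerebroside, and Aspa (1.17). Of 6 transcription factors tested 4 were higher, including Sox10 (2.66), Sox8 (2.68) and St18 (2.41), and of 16 other mature oligodendrocyte genes 8, including transferrin (Trf, 1.63), Qdpr (0.99) and Klk6 (3.21). Bcas1 (1.14) and Enpp6 (1.95), markers of premyelinating cells, were the only 2 of 13 precursor genes with enough reads, and both were higher. Of 5 Schwann cell genes only Pmp22 could be tested, and it was higher (1.47), while Prx was at 0 in all 4 groups. In R6/2 mice the counts higher were 8 of 15, 3 of 8, 4 of 6, 10 of 16, 2 of 2 and 1 of 1 in the same order, again with none lower.

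Some markers of other cell types were called between the regions as well. Over all 7390 genes, 7.62% (NT) and 5.6% (R6/2) were called lower in the striatum, and 7.28% and 5.76% higher. All 8 striatal projection neuron genes were higher in the striatum in each genotype, 3 of 4 cortical excitatory genes and 2 of 7 general neuronal genes were lower in each, and of 7 astrocyte genes 2 (NT) and 1 (R6/2) were lower. Of 6 microglial genes none (NT) and 1 (R6/2, Csf1r) were higher, of 3 endothelial genes 1 (NT, Ly6c1) and none, and the 1 choroid plexus gene tested was not called. The part of these cells in the regional differences of the myelin genes was not tested.

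Does the R6/2 genotype change these genes? In the cortex, Cldn11 fell and the other 8 did not pass the test. Cldn11 stood at 293, 490, 397 and 575 CPM in NT and at 164, 257, 241 and 279 CPM in R6/2 samples. Every R6/2 sample was below every NT sample. It was 1.87-fold lower (log2 -0.90 ± 0.22, edgeR adjusted p = 0.0256), where 2.81% of 6121 genes were called lower. The call was lost in several fits with 1 sample left out. The edgeR adjusted p was 0.0782 without NT 2, 0.105 without NT 4, and 0.110, 0.0686 and 0.0871 without R6/2 1, 2 and 3. The log2 values stayed between -1.06 and -0.74 whichever sample was left out.

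Mobp was read at 510, 921, 666 and 987 CPM in cortex NT and at 424, 475, 462 and 563 CPM in cortex R6/2, with 1 R6/2 sample inside the NT range. The edgeR test gave log2 -0.68 ± 0.22 (adjusted p = 0.101), while DESeq2 called it (adjusted p = 0.0353) together with Cldn11 (0.00420), against 3.84% of 3985 genes called lower by DESeq2. Mal stood at 50.8, 94.4, 35.6 and 103 CPM in NT and 34.4, 31.8, 39.0 and 74.5 CPM in R6/2 cortex, from 7 to 51 reads a sample, and the groups overlapped (log2 -0.79 ± 0.31, edgeR adjusted p = 0.199).

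The surface proteins Mag and Mog were separated in the cortex but not called. Mag stood at 181, 180, 163 and 174 CPM in NT and 89.8, 125, 126 and 156 CPM in R6/2 samples (log2 -0.49 ± 0.18, edgeR adjusted p = 0.172). Mog stood at 155, 148, 208 and 163 CPM against 95.5, 112, 121 and 147 CPM (log2 -0.47 ± 0.19, edgeR adjusted p = 0.193). Thus 3 of the 9 genes, with Cldn11, had every R6/2 sample below every NT sample, where 5.93% of all genes did. Cortical Mbp (log2 -0.20 ± 0.26), Opalin (-0.10), Cnp (-0.04) and Ermn (0.07) had overlapping groups. The median over the members was -0.47 with 8 of 9 below 0, against 0.01 over all genes.

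In the striatum the same fit called none of the 9, with 0.509% of 7658 genes called lower. The lowest ratio was that of Mal, at 245, 246, 210 and 208 CPM in NT and 106, 87.5, 116 and 123 CPM in R6/2 samples. The groups were apart by more than the spread within either, and the difference was log2 -1.08 ± 0.20 (edgeR adjusted p = 0.0553). Mobp stood at 2966, 2127, 1768 and 1498 CPM in NT and 1003, 1267, 1475 and 1118 CPM in R6/2, also without overlap (log2 -0.79 ± 0.26, edgeR adjusted p = 0.280). These were the 2 of 9 genes with no overlap, where 4.17% of all genes were lower in every R6/2 sample.

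Cldn11 was read at 1282, 1569, 765 and 660 CPM in striatum NT and at 436, 671, 782 and 496 CPM in striatum R6/2. Both NT samples with 1 count set lay within the R6/2 range. Its log2 difference was -0.85 ± 0.30 (edgeR adjusted p = 0.344). With the number of count sets as a term in the model, Mal (-1.11 ± 0.16, adjusted p = 0.00184), Cldn11 (-0.81 ± 0.17, adjusted p = 0.0171) and Mobp (-0.77 ± 0.17, adjusted p = 0.0245) were called lower by edgeR, against 3.84% of 7658 genes.

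Within samples of 1 set the log2 differences were -0.87 for Mal, -0.62 for Mobp and -0.62 for Cldn11, and within samples of 2 sets -1.30, -0.91 and -0.997, values with 2 samples a group and no test. DESeq2 without that term called Mal (adjusted p = 4.33e-06) and Mobp (0.0404), with 2.25% of 7649 genes called lower. Striatal Mbp had log2 -0.47 ± 0.32 (edgeR adjusted p = 0.769), which was -0.15 within samples of 1 set and -0.68 within those of 2. Mag (0.02), Mog (-0.12), Cnp (0.20), Opalin (-0.09) and Ermn (-0.08) had overlapping groups. Within samples of 1 set Cnp was 0.57, Mag 0.16, Mog 0.02, Opalin -0.16 and Ermn -0.27, and within samples of 2 sets Cnp was -0.0077, Mag -0.06, Mog -0.22, Opalin 0.04 and Ermn 0.28, so each of these 5 stood on opposite sides of 0. The median over the members was -0.12 with 7 of 9 below 0, against -0.01 over all genes.

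**Figure D2:**
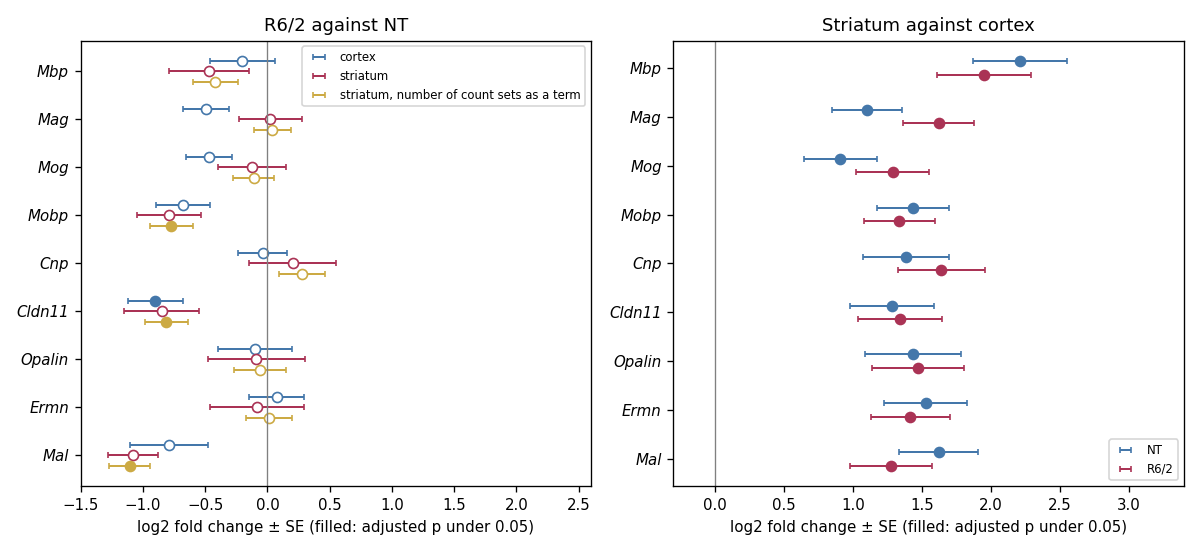
Log2 fold changes with SE of the 9 genes (horizontal axis, fits over 4 samples a group). Left: R6/2 against NT in the cortex, in the striatum, and in the striatum with the number of count sets as a term. Right: striatum against cortex in NT and R6/2 mice. Filled points passed an adjusted p of 0.05: all 18 on the right, and on the left Cldn11 in the cortex and Mobp, Cldn11 and Mal with the added term.

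The genotype difference itself was not shown to differ between the regions for any of the 9 genes. The interaction ran from log2 -0.35 (Mal) to 0.52 (Mag), with unadjusted p between 0.159 and 0.938 and 0 of 9 calls by edgeR (adjusted p = 0.999 for each), where 0.0135% of 7390 genes were called. The 4 comparisons share samples in pairs, so their values are not independent of each other.

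The same lists of other oligodendrocyte genes were counted between the genotypes. In the cortex none of 11 other myelin proteins, 4 lipid enzymes, 3 transcription factors, 1 precursor gene and 1 Schwann cell gene tested was called. Of 10 other mature oligodendrocyte genes, glutamine synthetase (Glul), which astrocytes use more widely, fell (log2 -0.93, edgeR adjusted p = 0.0228), and the lipid carrier Apod rose (0.72, adjusted p = 0.0429). Over all 6121 genes tested there, 2.81% were called lower and 0.457% higher. In the striatum none of the 15, 8, 6, 17, 2 and 1 genes tested of these lists was called, where 0.509% of 7658 genes were called lower and 0 higher. With the number of sets as a term, 1 of 8 lipid enzymes, Ugt8a (-0.81), was lower. Of 17 other mature oligodendrocyte genes, carbonic anhydrase Car2 (-0.74) was lower and Apod (0.74) and Evi2a (0.62) higher. Over all 7658 genes, 3.84% were called lower and 0.496% higher with that term.

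Some genes of other cells were called in the same comparisons, against the same shares over all genes as for the lists above. In the cortex the astrocyte markers summed to 2314 to 3574 RPM in NT and 1419 to 1844 in R6/2 samples, with all 7 below 0 and Aldoc called (log2 -1.28). General neuronal markers summed to 7706 to 9008 against 5851 to 6856, with 1 of 7 called, Nefl (-0.91). Striatal projection neuron markers summed to 379 to 463 against 97.2 to 124, with 2 of 3 tested called, Ppp1r1b (-2.38) and Penk (-2.13). None of 3 cortical excitatory, 5 microglial, 2 endothelial and 1 choroid plexus genes was called. In the striatum, 3 of 8 projection neuron genes were called lower (Penk -3.05, Rgs9 -2.36 and Ppp1r1b -2.16), and none of 7 neuronal, 7 astrocyte, 7 microglial, 4 endothelial and 1 choroid plexus genes was. No cortical excitatory gene could be tested there. The added term brought calls to 6 of 8 projection neuron genes, to Rbfox3 (-0.77) and to Aldoc (-1.14). One striatal NT sample held choroid plexus markers at 8823 RPM, where the lowest held 33.8. The part of these cells in the myelin gene differences was not tested.

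The forms of Mbp were compared next. Of its reads, 94.1% were of known isoforms, and classic forms were told apart by the exons they hold, exon 2 (78 nt), exon 5 (33 nt) and exon 6 (123 nt). Which exons each isoform holds was inferred from its listed exon number and length. The form without exons 2 and 6 (ENSMUST00000133193, 83676 reads) took 85.5% ± 1.55 (SD, n = 4) of assigned classic reads in cortex NT, 85.6% ± 1.79 in cortex R6/2, 90.7% ± 1.30 in striatum NT and 90.6% ± 1.40 in striatum R6/2. The form with exon 6 alone (ENSMUST00000102812) took 5.70 to 10.1% as group means. The form with exon 2 alone (ENSMUST00000080658) took 2.85 to 4.08%, that with both exons (ENSMUST00000062446) 0.383 to 0.913%, and that with exon 6 but not 5 (ENSMUST00000075372) was read 66 times in all.

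Exon 6 was included in 11.4, 10.7, 13.6 and 9.21% of classic reads in cortex NT and in 10.5, 11.2, 10.7 and 9.02% in cortex R6/2. In the striatum it was included in 7.64, 6.60, 5.46 and 6.08% in NT and in 6.51, 6.88, 6.94 and 4.82% in R6/2 samples. Every cortical sample was above every striatal one, while the genotypes overlapped in each region. How often isoform shares of all genes separate the regions in this way was not counted. Within the striatum, samples of 1 set had means of 5.77% (NT) and 5.66% (R6/2), and samples of 2 sets 7.12% and 6.91%, so the share moved with the number of sets.

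Exon 2 was included in 4.195, 4.68, 4.03 and 3.93% in cortex NT and in 5.57, 4.55, 5.53 and 3.22% in cortex R6/2. The R6/2 minus NT difference was 0.512 points ± 0.578 SE (p = 0.400, two-sided exact permutation test over 70 arrangements, smallest possible p 0.0286). In the striatum it was included in 3.83, 3.34, 2.77 and 2.98% (NT) and in 3.66, 3.47, 4.34 and 3.10% (R6/2), a difference of 0.411 points ± 0.349 (exact permutation p = 0.314). The genotypes overlapped in both regions. Within samples of 1 set the striatal means were 2.87% (NT) and 3.38% (R6/2), and within samples of 2 sets 3.59% and 3.90%. These levels depend on how exons were assigned: with exons as M21 lists them, exon 2 was in 0.913% (NT) and 0.634% (R6/2) of cortical and in 0.386% and 0.520% of striatal classic reads as group means, and the cortical difference turned.

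**Figure D3:**
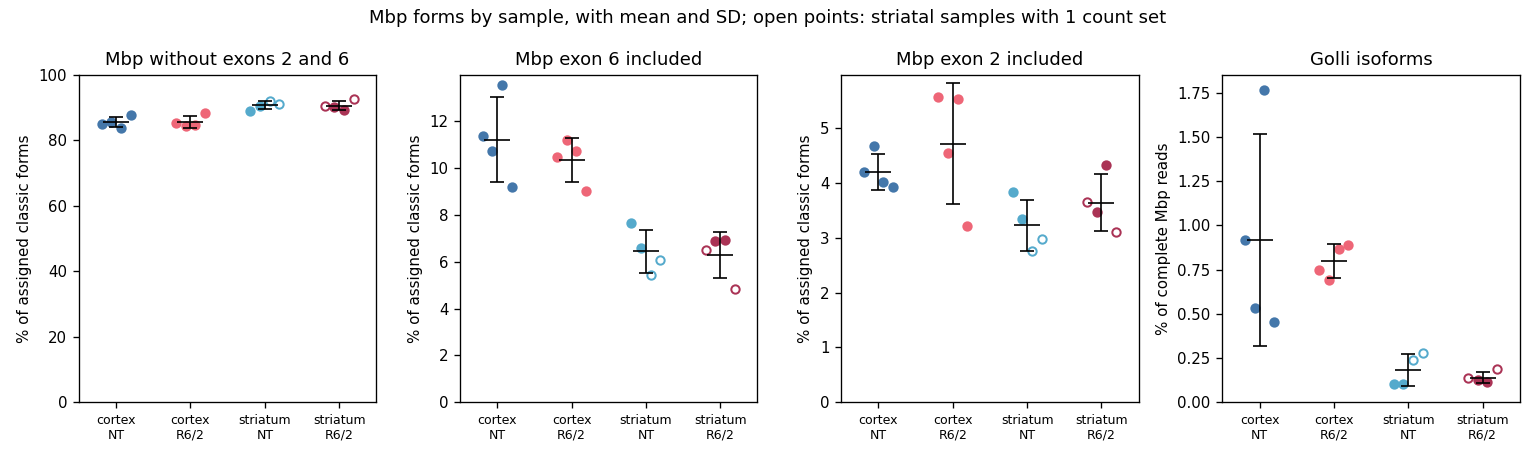
Shares of Mbp forms by sample. From left: classic reads without exons 2 and 6, classic reads with exon 6, classic reads with exon 2 (each as percent of assigned classic reads), and golli reads (percent of complete Mbp reads), each axis from 0. Points are samples, bars mean and SD of 4, open points striatal samples with 1 count set. Exon 6 lies at 9.02 to 13.6% in cortical and 4.82 to 7.64% in striatal samples.

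Golli transcripts start 79370 bases upstream of the classic start, at base 82475146 of chromosome 18 against 82554516. They were 11 of 1203, 9 of 1684, 5 of 283 and 10 of 2198 complete Mbp reads in cortex NT, or 0.914, 0.534, 1.77 and 0.455%. In cortex R6/2 they took 0.746, 0.689, 0.868 and 0.889% (48 reads in all). In striatum NT they took 0.102, 0.104, 0.238 and 0.279% (64 reads) and in striatum R6/2 0.137, 0.123, 0.112 and 0.185% (43 reads). Every cortical share was above every striatal one, and how many isoform shares of all genes did so was not counted. In the striatum the mean was 0.259% (NT) and 0.161% (R6/2) in samples of 1 set and 0.103% and 0.117% in samples of 2 sets. For the third cortical NT sample the exact 95% interval ran from 0.576 to 4.07%, which covers counting error only.

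The genotypes differed in the golli share by -0.120 points ± 0.304 in the cortex (exact permutation p = 0.857) and by -0.0413 points ± 0.0486 in the striatum (exact permutation p = 0.457). Of the golli reads 181 were of ENSMUST00000091789, 6 of ENSMUST00000047865 and 3 of ENSMUST00000114676. Relative to Mbp as a whole the first of these was lower in the striatum by log2 -1.63 ± 0.38 in NT (edgeR diffSpliceDGE adjusted p = 0.0313) and -1.86 ± 0.33 in R6/2 (adjusted p = 0.000271). These p values were adjusted over isoforms, and the share of all isoforms called was not counted. In NT the gene-level test did not call Mbp (edgeR Simes adjusted p = 0.150), and this isoform had 35 reads in cortex NT. Mbp reads as a whole were higher in the striatum, so a lower share does not mean fewer golli reads per library.

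Isoform use was tested for each gene with at least 2 isoforms of 10 reads. Between the regions, Mbp was called in R6/2 (edgeR Simes adjusted p = 0.000978), against 0.777% of 3992 genes, and not in NT (0.150), where 0.271% of 3694 genes were called. Whether the genotypes differ in this was not tested. Between the genotypes, Mog, Cldn11 and Ermn could not be tested in either region, nor Opalin and Mal in the cortex. None of the members tested was called in the cortex, with 0.36% of 3058 genes called, or in the striatum, with 0.0676% of 4437. The lowest adjusted p among them was that of Mobp in the striatum (0.621, edgeR). With the number of count sets as a term it was 0.124, with 19 of 4437 genes called. The Mobp isoform TALONT000779825 (class NIC, new combinations of known junctions) was then higher in R6/2 relative to the gene by log2 1.499 (edgeR diffSpliceDGE adjusted p = 0.0502), which missed the threshold. This is a minor isoform, under 5% of complete Mobp reads in each group mean, and all NIC isoforms of Mobp together held 139 reads over the 16 samples. Cassette exons gave no call either: Mbp exons 2 and 6 in both regions and Mag exon 12 in the striatum had edgeR adjusted p between 0.923 and 0.962, where 0.503% of 596 cortical and 0.111% of 901 striatal exons were called.

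Mag was the 1 gene of the 9 in which annotated isoforms were a small part. Known isoforms took 8.50% of its reads and those of class NIC 59.8%. Among known isoforms the exon 12 share rested on 2 to 7 reads in each cortical sample. Striatal samples held it in 41 of 44, 41 of 43, 8 of 10 and 4 of 4 NT reads and in 20 of 21, 40 of 44, 33 of 35 and 9 of 9 R6/2 reads. The difference was 8.33 points ± 8.67 in the cortex (exact permutation p = 0.714) and 2.98 points ± 4.68 in the striatum (exact permutation p = 0.686). Within samples of 1 set the striatal means were 90.0% (NT) and 97.6% (R6/2), and within samples of 2 sets they stood the other way round, at 94.3% and 92.6%.

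The 3 most read NIC isoforms of Mag were added in an alternative chosen after the values were seen. By exon number and length TALONT000516225 (1238 reads) was read as holding exon 12, and TALONT000516238 (308 reads) and TALONT000516291 (62 reads) as skipping it. Length does not settle this reading. For TALONT000516225 the loss of exon 2 leaves 0 nt to explain, but the loss of exon 3 leaves 3 nt and that of exon 12 itself -8 nt, while 41 nt were accepted for each of the other two, whose lengths loss of exons 2 or 3 with exon 12 kept leaves within 52 nt. The shares that follow, and their direction, rest on it. In the striatum reads so read as holding the exon were 214 of 276, 252 of 333, 72 of 108 and 18 of 22 in NT and 130 of 143, 250 of 303, 270 of 327 and 77 of 84 in R6/2 samples. The shares, 77.5, 75.7, 66.7 and 81.8% against 90.9, 82.5, 82.6 and 91.7%, did not overlap, although the highest NT sample rested on 22 reads. The difference was 11.5 points (exact permutation p = 0.0286, the smallest that 4 against 4 allows). Within samples of 1 set the means were 74.2% (NT) and 91.3% (R6/2), and within samples of 2 sets 76.6% and 82.5%. In the cortex the mean shares were 69.7% ± 3.42 and 73.6% ± 2.55 (exact permutation p = 0.143). The study followed up Mag splicing in R6/2 mice, so Mag was not picked independently of its response.

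Cnp was read as 2 known isoforms that differ in their first exon. ENSMUST00000103120 has 4 exons, and ENSMUST00000150414 has 3, its start lying 620 bases downstream on chromosome 11. In the striatum the 4-exon form took 65.3, 70.6, 65.8 and 66.1% of complete Cnp reads in NT and 77.4, 74.0, 76.3 and 73.7% in R6/2 samples. No R6/2 sample overlapped NT, and the means within 1 set (66.0% and 75.5%) and within 2 sets (67.9% and 75.1%) stood the same way round. In the cortex it took 69.6, 66.0, 73.8 and 62.5% in NT and 72.4, 73.3, 77.5 and 74.2% in R6/2, with overlap. The 3-exon form took 26.2 to 36.1% in NT and 21.03 to 25.9% in R6/2 cortex, and 27.9 to 33.3% and 21.3 to 24.9% in the striatum, without overlap in either.

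These Cnp shares were not called by edgeR's diffSpliceDGE test across all genes in either region. Over the isoforms of the members with enough reads, 1 of 7 cortical (of Cnp) and 4 of 13 striatal ones (2 of Cnp and 2 of Mag) had no overlap between the genotypes, where 9.08% of 2247 and 10.1% of 2080 isoforms of all genes had none. Shares of isoforms of 1 gene add up to a whole, so a pair of them counts 1 change more than once.

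**Figure D4:**
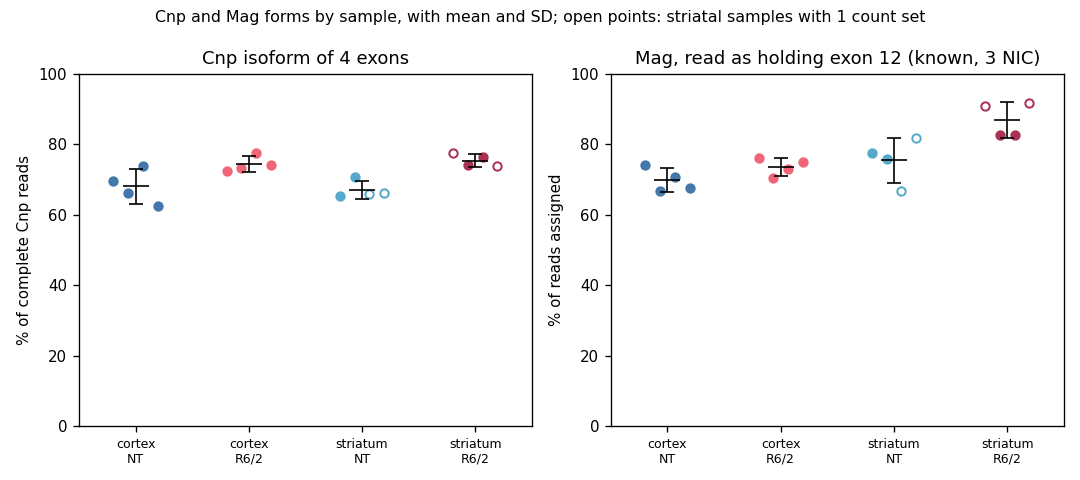
Left: share of the 4-exon isoform among complete Cnp reads (percent). Right: share of Mag reads of known and 3 NIC isoforms that were read, by exon number and length, as holding exon 12 (percent), a reading that length does not settle for the NIC isoforms. Points are samples in the 4 groups, bars mean and SD of 4, open points striatal samples with 1 count set, axes from 0 to 100. Striatal R6/2 samples lie above all striatal NT samples in each panel, at 73.7 to 77.4% against 65.3 to 70.6% for Cnp.

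The remaining genes were read mainly as 1 isoform each. Mobp was 88.8 to 91.4% ENSMUST00000174193 as group means. Of complete isoforms with at least 10 reads, Mog, Cldn11 and Ermn had 1, Opalin and Mal 2, Cnp 5, Mobp 10, Mag 11 and Mbp 37.

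Which genes outside the set behaved most like it? The log2 CPM of each member was standardised over the samples, and the members were then averaged. Over 16 samples and 4747 genes, the likeness to that mean was Pearson r = 0.979 for Rxrg, 0.969 for Gng7, 0.966 for Pdyn and 0.964 for Wfs1, all of them with higher group means in the striatum. Rxrg, a retinoid receptor gene, stood at 14.9 ± 4.93 CPM (SD) in cortex NT and 173 ± 29.2 CPM in striatum NT. In R6/2 mice Rxrg stood at 11.6 ± 6.46 CPM in the cortex and 96.4 ± 19.5 CPM in the striatum. Striatal means of Gng7, Pdyn and Wfs1 were also lower in R6/2, at 736, 65.6 and 70.1 CPM against 1301, 150 and 144 CPM in NT. The striatal genotype median of the members was log2 -0.12, so the likeness over 16 samples does not extend to the genotype difference of every member. With group means taken out and each member then divided by its SD, the order was Bcas1 (0.923), Grn (0.902), Zdhhc7 (0.894), Tmbim6 (0.885) and C77370 (0.884). Bcas1, the oligodendrocyte gene among them, stood at 322 ± 54.0 and 325 ± 76.4 CPM in NT and R6/2 cortex and at 709 ± 161 and 761 ± 145 CPM in NT and R6/2 striatum. The points share library, depth and RNA length, and the values describe these samples only.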

How the data were processed

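Iso-seq reads of 16 samples were analysed. The authors deposited raw read counts for each isoform, not normalized and before TALON's filter. The authors used ccs (4.2.0), lima (1.11.0), isoseq3 refine (3.3.0), minimap2 (2.17-r941) on mm10, TranscriptClean (2.0.2) and TALON (5.0) with Ensembl (87), after 27 PCR cycles, and reads carry no molecular identifiers. Per the labels, 4 striatal samples have 2 replicates of raw data, and their 2 count sets were summed.

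Gene counts were sums of known, ISM (incomplete), NIC and NNC reads, complete reads those without ISM. Genes were tested in R (4.3.3) with edgeR (4.0.16; TMM, filterByExpr, quasi-likelihood, Benjamini-Hochberg over all genes, threshold 0.05) within each region, and in 1 fit of 16 samples for regions and their interaction. Isoforms and cassette exons with at least 10 reads were tested with diffSpliceDGE, and single shares with exact permutation tests (scipy 1.17.1). DESeq2 (1.42.0) was an alternative. The scripts were tested on simulated data. Exact 95% intervals cover counting error only.

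Cassette exons and loci come from GENCODE (M21, GRCm38). For several Mbp isoforms its exon number differs from the deposited one, so Mbp exons were inferred from deposited exon number and length, a change from the planned use of annotated exons. Golli isoforms were named whatever their share, as were some other minor isoforms of Mbp, Mag and Mobp. All 9 genes are named throughout, at most 3 called genes of each other list per comparison, isoforms of at least 5% of complete reads, and the 5 most alike genes among those with a mean of at least 20 reads. The gene set, lists and tests were chosen with earlier results of these data known. Some genes that these rules would name are not reported here. The HTT transgene was not analysed here.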

Additional observations from a re-analysis of the deposited data

Results flagged for a closer look

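Of 80 groups of 4 samples checked with Dixon's test at its 95% level, 5 had a sample far from the others of its group, and chance flags about 5% of groups. Opalin was read at 48.1 CPM in the fourth cortical R6/2 sample, with the others at 37.5 to 38.2 CPM. Mal was at 74.5 CPM in the same sample, with the others at 31.8 to 39.0 CPM. Ermn was at 81.3 CPM in the third cortical NT sample, with the others at 64.9 to 67.4 CPM. The 4-exon isoform of Cnp took 70.6% of complete Cnp reads in the second striatal NT sample, with the others at 65.3 to 66.1%, and all stayed below the R6/2 samples. Mag exon 12 was in 85.7% of 7 known-isoform reads of the fourth cortical R6/2 sample, with the others at 100%, each on 4 reads or fewer.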

How the results depend on the processing

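Of the 9 genes, the number called between the genotypes in the cortex was 1, and it was 2 with DESeq2 (Mobp and Cldn11), 0 with ISM reads left out, 0 with all 16 samples in 1 fit, and 0 to 2 with 1 sample left out, Mobp being added without NT 1. In the striatum it was 0, and it was 2 with DESeq2 (Mobp and Mal), 1 with the genomic class added (Mal), 1 with all 16 samples in 1 fit (Mal) and 3 with the number of count sets as a term. Over all genes, calls in the cortex were 178 with DESeq2, 95 without ISM reads and 48 with all 16 samples, against 200, and in the striatum 187, 58 (genomic class), 145 (all 16 samples) and 332 (sets term), against 39. Isoform use was called for 0 to 1 members in the striatum with 1 sample left out (Mobp, without NT 1), and between regions in NT for 1 with at least 20 reads, 1 without the 2 striatal samples of 1 set (an alternative chosen after seeing the data) and 0 to 1 with 1 sample left out (Mbp, without striatal NT 4). The causes were not tested.

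The Mag exon 12 difference in the striatum was 11.5 points with NIC isoforms added, on an exon reading that length does not settle, and -1.07 to 5.60 points with 1 sample left out (lowest without NT 3). The Mbp exon 2 difference in the cortex was -0.278 points with exons as M21 lists them. The golli difference was 0.159 points (cortex) and 0.00103 points (striatum) on pooled reads, and -0.274 to 0.163 points in the cortex with 1 sample left out (highest without NT 3).

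Among genotype log2 fold changes that were not called, signs changed for Cnp in the cortex (0.0055 with upper-quartile factors, 0.0069 with no filter on low counts) and for Ermn in the striatum (0.018 with no filter, 0.18 without ISM reads, 0.00039 with the genomic class, 0.012 with the sets term). Interactions changed sign for Opalin (-0.086 without ISM reads, -0.054 without the samples of 2 sets), Ermn (0.0053 without ISM reads, 0.22 without the striatal samples of 1 set), Cldn11 (-0.089 without those), Mbp (0.057) and Mobp (0.062, both without samples of 2 sets). With 1 sample left out, sign changes gave ranges in the cortex of -0.16 to 0.055 (Cnp), -0.065 to 0.18 (Ermn) and -0.36 to 0.10 (Opalin), in the striatum of -0.27 to 0.27 (Ermn), -0.094 to 0.20 (Mag), -0.29 to 0.030 (Mog) and -0.40 to 0.23 (Opalin), and for the interaction of -0.12 to 0.30 (Cldn11), -0.22 to 0.31 (Opalin), -0.31 to 0.19 (Ermn), -0.24 to 0.12 (Mobp) and -0.44 to 0.029 (Mbp).

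With the sample number as a replicate block, Cldn11 in the cortex kept its call (log2 -0.87, edgeR adjusted p = 0.00724), calls over all genes in the cortex were 205 against 200 and in the striatum 0 against 39, and the block reversed the uncalled values of Ermn in the striatum (0.00029) and of Opalin in the interaction (-0.056). Correlations of same-numbered samples' deviations ran from -0.11 to 0.23 (cortex) and -0.66 to 0.72 (striatum) between genotypes, and from -0.25 to 0.31 (NT) and -0.04 to 0.53 (R6/2) between regions. In the striatum between genotypes, numbers 2 and 4, whose samples had equal numbers of count sets, gave 0.49 and 0.72. Numbers 1 and 3, whose samples differed in it, gave -0.66 and -0.45. Not every pair was over 0.1, so the numbers were not taken to pair the samples. Whether cortex and striatum samples share a mouse was not tested. Depth limits Mal, Opalin and Ermn in the cortex, at 6 to 51 reads a sample, and known Mag isoforms, at 2 to 44.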
